A study of Mus musculus with 12 samples.

Results

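Metallothioneins and metal response genes are described here as 7 genes out of the 27179 that were counted in mouse hippocampal neurons treated with a proteasome inhibitor. The members were chosen by name, as the metallothioneins Mt1, Mt2 and Mt3, the zinc-sensing transcription factor Mtf1, the zinc exporter Slc30a1, and the ferritin chains Fth1 and Ftl1. The Entrez gene identifiers of the count files were matched to RefSeq symbols, and all 7 members were found and had enough reads to be tested.

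The study cultured hippocampal neurons of newborn mice for 17 or 18 days (strain C57BL/6 by the labels, while the methods name FVB mice as well) on porous Transwell inserts, where cell bodies stay on top of the membrane and neurites (axons and dendrites) grow through it. MG132, a peptide aldehyde that blocks the proteasome, was added at 10 uM for 7 h, and per the study's methods the control (Ctrl) cultures received its solvent. RNA of somas and of neurites was captured by polyA and sequenced from both ends, though reads were aligned as single-end, which gave 4 groups of 3 libraries each (Ctrl somas, MG132 somas, Ctrl neurites and MG132 neurites). All groups are wild-type primary cultures. The labels do not say whether the replicates came from separate cultures, so the p-values measure only the spread between these libraries. Per the study's methods, somas were scraped off membranes that were then cut out for neurites. Somas and neurites of the same replicate number may thus be paired, which the main fit does not use. Fits with the replicate number as a block are given as an alternative. The names of the libraries carry dates that follow the replicate numbers, except for 1 MG132 neurites library.

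The libraries held 4247610 to 22166347 counted reads, of which 12.4 to 33.4% fell on the single most read gene and 9.78 to 29.2% on mitochondrial genes. Levels are given as counts-per-million values (CPM), scaled by edgeR's TMM factors, which were 1.18 to 1.44 for the somas and 0.567 to 0.999 for the neurites. The MG132 label was checked on heat shock genes. Dnajb1, a co-chaperone of HSP70, was higher with MG132 by 4.15 on the log2 scale in somas and by 3.64 in neurites (edgeR quasi-likelihood test, Benjamini-Hochberg adjusted p = 1.33e-08 and 5.67e-08). The cultures are labelled as neurons, yet glial markers were read in every library. The summed level of 12 astrocyte markers ranged from 2619 to 26462 CPM over the libraries, and that of 12 neuron markers from 1270 to 4183 CPM. Of the astrocyte markers, Gfap alone averaged 17774 CPM in Ctrl neurites.

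Metallothioneins are small cysteine-rich proteins that bind zinc and copper. When cytosolic zinc rises, the zinc finger protein MTF1 binds metal response elements in the promoters of Mt1, Mt2 and Slc30a1 and activates them, while Mt3, the brain form, responds little to metals. In brain, Mt1 and Mt2 are best known from astrocytes, and Mt3 from both neurons and astrocytes. Ferritin, a shell of heavy (FTH1) and light (FTL1) chains, stores iron, and its translation is held back by iron regulatory proteins that bind an iron-responsive element at the 5′ end of the mRNA.

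The metallothionein genes lie next to each other on chromosome 8 (GRCm38.p6), with Mt3 at 94152607 to 94154148, Mt2 at 94172618 to 94173567 and Mt1 at 94178883 to 94180327. Mtf1 is on chromosome 4 at 124802549 to 124849800, Slc30a1 on chromosome 1 at 191906697 to 191913248, Fth1 on chromosome 19 at 9980600 to 9985111 and Ftl1 on chromosome 7 at 45457944 to 45459886. All are protein-coding.

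Stretches of RefSeq promoter sequence (GRCm38.p6, plus strand) are shown because the metal response element is the sequence that links MTF1 to its targets. Its core was searched as TGCACNC or TGCGCNC on both strands from 250 bases before to 50 bases after each RefSeq start. All 7 members had a window, and Fth1 had 2. Capitals mark the core, and positions count from 1 at the RefSeq start used, with negative numbers before it. The RefSeq genes of Mt1 and Slc30a1 begin further upstream, at 94178883 and 191906697, so their stretches with negative numbers lie inside the gene.
Mt1, chr8:94179059-94179088 (-30 to -1): cccgctgTGCACACtggcgctccagggagc
Mt1, chr8:94179089-94179118 (1 to 30): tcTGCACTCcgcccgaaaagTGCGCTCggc
Mt2, chr8:94172368-94172617 (-250 to -1): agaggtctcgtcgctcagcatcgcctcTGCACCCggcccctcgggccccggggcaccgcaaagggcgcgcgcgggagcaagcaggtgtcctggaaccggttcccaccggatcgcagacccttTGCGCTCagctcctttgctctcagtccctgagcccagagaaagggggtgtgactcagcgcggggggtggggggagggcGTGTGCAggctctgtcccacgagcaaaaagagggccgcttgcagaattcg
Mt2, chr8:94172619-94172648 (2 to 31): gtcGTGCGCAggcccaggggcgtgtgctgg
Mt3, chr8:94152631-94152656 (25 to 50): cagTGCACACacacggagagcaggcg
Slc30a1, chr1:191906726-191906755 (-55 to -26): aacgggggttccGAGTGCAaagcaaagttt
Slc30a1, chr1:191906808-191906830 (28 to 50): gccGAGCGCAgtcgccgcggacg
The Mt1 window held 3 cores, the Mt2 window 4, the Slc30a1 window 2 and the Mt3 window 1, while the windows of Mtf1, Fth1 and Ftl1 held none. These counts hold for the RefSeq starts used. GENCODE M21 also lists starts upstream of them, at 94179082 for Mt1, 191906767 for Slc30a1 and 124802104 for Mtf1. Others lie downstream, among them 94179211 and 94179241 for Mt1, 94172664 and 94172860 for Mt2, and 94152746 for Mt3. No window set on any of these other starts was searched. At least 1 core was in 25.7% of all 32851 windows of this length, at least 2 in 7.11%, at least 3 in 1.97% and at least 4 in 0.517%. The antioxidant response element core TGACNNNGC occurred 1 time in the Mt2 window and 1 time in the Slc30a1 window, against 12.4% of all windows with at least 1. The heat shock element GAANNTTC was in no member's window and in 7.86% of all windows.

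The ferritin transcripts are shown at the loop of their iron-responsive element, searched as CAGTG with a C 6 bases before it in the 5′ untranslated regions of GENCODE M21. Capitals mark the loop.
Fth1: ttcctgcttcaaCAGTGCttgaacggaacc
Ftl1: gtcttgcttcaaCAGTGTttgaacggaaca
The same letters occurred in 1883 of 15729 genes with an annotated 5′ untranslated region of at least 100 bases (11.97%).

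Some members share sequence with other genes, which limits what their counts measure. Of the 75-base windows of the longest Ftl1 transcript, 84.8% also occurred in transcripts of 8 other genes, 4 of them annotated as pseudogenes, so Ftl1 counts are uncertain. Of the Mt2 windows, 32.3% overlapped Gm45774 on the other strand, and the strand setting of the counting is not given in the sources used here. The share was 8.56% for Mtf1 and 7.64% for Slc30a1, both with a gene on the other strand, and 2.32% for Fth1, with a pseudogene, and no window of Mt1 or Mt3 was shared.

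Per length of exon (CPM per kilobase of exon, RPKM), Fth1 was the most abundant member in all 4 groups, from 715 ± 152 RPKM in Ctrl somas to 4996 ± 1837 RPKM in Ctrl neurites (SD, n = 3). Mt2 came next, with 297 ± 36.1 RPKM in Ctrl somas and 514 ± 138 RPKM in Ctrl neurites. Its place above Mt1 in Ctrl rests on the exon length used, which was shorter for Mt2 than for Mt1. Not divided by length, the CPM of Mt1 and Mt2 overlapped in both Ctrl groups, with Mt2 to Mt1 count ratios of 0.841 to 1.40. With MG132 that ratio was 1.64 or more in every library, so Mt2 lay above Mt1 there without the length too. Mt1 and Mt3 followed and lay close together in Ctrl neurites, at 231 ± 27.1 and 221 ± 41.2 RPKM, which differed by less than their SD. They also lay near each other in MG132 neurites, with Mt3 at 147 ± 27.4 RPKM and Mt1 at 104 ± 34.7 RPKM. Ftl1 came after these in every group, from 19.9 ± 5.33 RPKM in Ctrl somas to 72.3 ± 35.9 RPKM in Ctrl neurites. That place is uncertain, since reads from its shared sequence are likely left out of its count. Slc30a1 and Mtf1 were the lowest, at 6.27 ± 0.656 and 3.34 ± 0.683 RPKM in Ctrl somas. In Ctrl neurites these last genes differed by less than their SD, with Mtf1 at 5.14 ± 0.563 RPKM and Slc30a1 at 4.99 ± 0.384 RPKM.

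**Figure D1:**
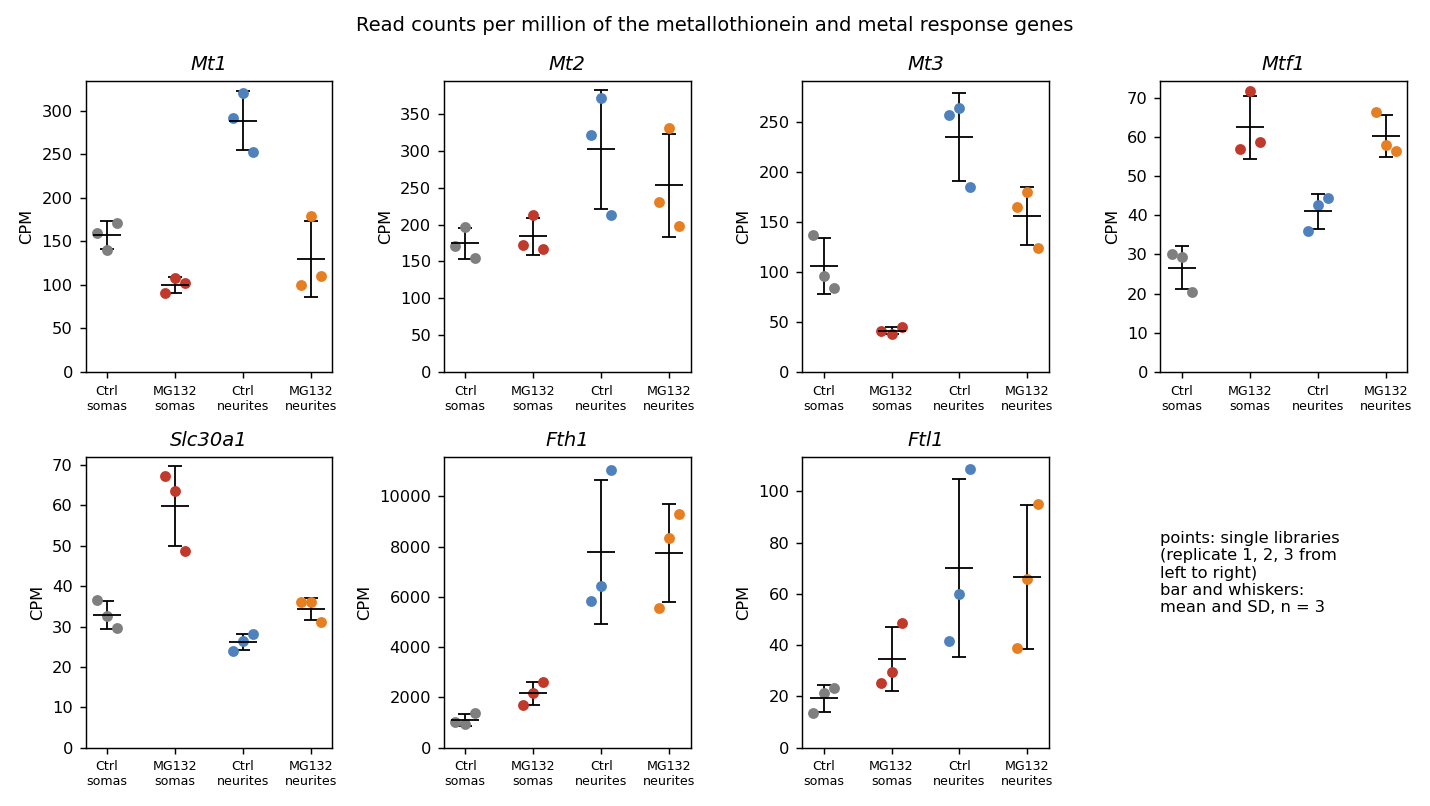
Level in CPM (vertical axes from 0) of each member in the 12 libraries, by group. Points are libraries, and the bar and whiskers give the mean and SD of 3. Fth1 lies at 5565 CPM or more in every neurites library and at 2621 CPM or less in every somas library.

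MG132 changed the members in both directions in somas. Mtf1, Slc30a1 and Fth1 rose, Mt1 and Mt3 fell, and Mt2 and Ftl1 did not pass the test (adjusted p under 0.05, edgeR quasi-likelihood test over all 14185 tested genes). These 5 of 7 calls stand beside 27.5% of all tested genes called in this comparison, of which 15.5% were higher and 11.9% lower. The median log2 fold change was 0.86 over the members, which is the value of Ftl1, and -0.07 over all tested genes. The 2 groups did not overlap in CPM for 6 of 7 members, Mt2 being the exception, against 45.9% of all tested genes.

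In neurites, MG132 lowered Mt1 and raised Mtf1, and the other 5 members did not pass. Of all tested genes 27% passed here, 14.7% higher and 12.3% lower, and the groups did not overlap for 40.9% of them. They did not overlap for 4 of 7 members, namely Mt1, Mt3, Mtf1 and Slc30a1. The median was -0.08 over the members, again the value of Ftl1, and -0.16 over all tested genes. Scaled to total counts, the calls over all genes in neurites turned from 2085 higher and 1738 lower to 940 higher and 1336 lower.

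Between the fractions, 6 of 7 members were higher in Ctrl neurites than in Ctrl somas, all but Slc30a1, whereas 14.9% of all tested genes passed, 10.2% higher in neurites and 4.65% lower. Libraries of the 2 groups did not overlap for any of the 7 members, against 33.7% of all tested genes. With MG132, Mt3 and Fth1 were higher and Slc30a1 lower in neurites, beside 17.7% of all tested genes, 11.4% higher and 6.35% lower. The groups did not overlap for 3 of 7 members, those same 3 genes, against 36.8% of all tested genes. Blocked on replicate number, the fit called 1941 genes higher and 1316 lower in Ctrl neurites, in place of 1452 and 659. In MG132 neurites it called 2142 higher and 1660 lower, in place of 1615 and 901.

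The comparison of fractions depends on the scaling. With total counts in place of TMM factors, the median log2 difference of all genes between neurites and somas moved from -0.04 to -0.70 in Ctrl and from -0.08 to -0.86 with MG132. The calls over all genes turned from 1452 higher and 659 lower in Ctrl neurites to 324 higher and 2736 lower, and with MG132 from 1615 and 901 to 300 and 4336. A change of scaling moves all genes of a comparison by nearly the same amount. Measured from the median gene, the members' differences in the 4 comparisons could thus hardly change, and did so by at most 0.08. This does not test whether a difference depends on the scaling. In Ctrl neurites against Ctrl somas, for example, Mt1 lay 0.91 above the median gene under both scalings, and Mtf1 0.66 and 0.65 above it. On total counts Mt1, Mt2, Mt3 and Mtf1 did not pass in this comparison (adjusted p = 0.672, 0.828, 0.333 and 0.930, edgeR). The Mtf1 difference itself reversed to -0.048.

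**Figure D2:**
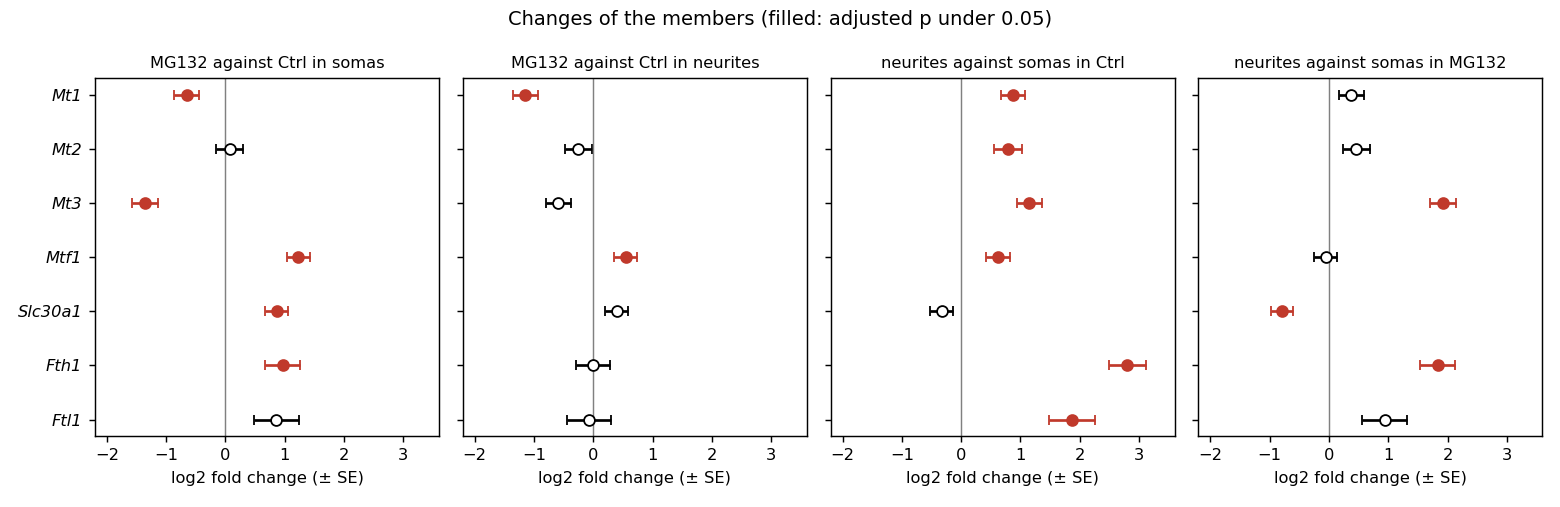
Log2 fold change (horizontal axes, ± SE of the fit) of each member in the 4 comparisons, with filled points where the adjusted p was under 0.05. In somas 3 members lie to the right of 0 and 2 to the left with filled points, and in Ctrl neurites against Ctrl somas 6 lie to the right.

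Mt1 encodes one of the zinc- and copper-inducible metallothioneins. It was read at 160, 140 and 171 CPM in the Ctrl somas libraries (replicates 1 to 3), and at 90.5, 108 and 102 CPM in MG132 somas. All 3 MG132 libraries lay below all 3 Ctrl libraries. The log2 fold change was -0.65 ± 0.21 (SE), with an adjusted p of 0.0299 in edgeR's test. The call was lost when any MG132 somas library or Ctrl somas replicate 1 or 3 was left out (-0.70 to -0.59, adjusted p = 0.0526 to 0.109).

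In neurites, Mt1 stood at 291.8, 320 and 253 CPM in Ctrl and at 99.4, 179 and 110 CPM with MG132. Replicate 2 was the highest of the MG132 libraries, and still below each Ctrl library. Mt1 fell by 1.15 ± 0.21 on the log2 scale (adjusted p = 9.41e-04, edgeR), with -1.55 to -0.84 within the replicate numbers. The call held without any single library. Ctrl neurites exceeded Ctrl somas by 0.87 ± 0.21 on the log2 scale (adjusted p = 0.0102, edgeR), or by 0.72 with an adjusted p of 0.0610 without Ctrl somas replicate 2. With MG132 the fractions overlapped, and the difference of 0.38 ± 0.21 did not pass (adjusted p = 0.233, edgeR).

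Mt2, the neighbour of Mt1 and likewise metal-inducible, was the metallothionein with the smallest differences under MG132. Its levels were 171, 197 and 155 CPM in Ctrl somas and 172, 213 and 167 CPM in MG132 somas. These ranges overlapped, with a log2 fold change of 0.07 ± 0.23 (adjusted p = 0.844, edgeR). In neurites, Mt2 was at 322, 372 and 213 CPM in Ctrl and at 231, 331 and 197 CPM with MG132, with -0.25 ± 0.23 (adjusted p = 0.441, edgeR). Replicate 2 was the highest library of each neurites group, and the groups overlapped.

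Mt2 was higher in Ctrl neurites than in Ctrl somas by 0.79 ± 0.23 on the log2 scale (adjusted p = 0.0300, edgeR). That call was lost without any of the 3 Ctrl somas libraries or without Ctrl neurites replicate 1 or 2 (0.61 to 0.81, adjusted p = 0.0669 to 0.143). With MG132 the difference was 0.46 ± 0.23 (adjusted p = 0.183, edgeR). It passed with the replicate number as a block (0.44, adjusted p = 0.0246).

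Mt3, the metallothionein also called growth inhibitory factor, fell the most of the members in somas. It was at 138, 96.1 and 83.9 CPM in Ctrl somas and at 41.3, 37.8 and 44.9 CPM in MG132 somas. The highest MG132 library was well under the lowest Ctrl library, and the MG132 libraries lay close together. The log2 fold change was -1.35 ± 0.22 (adjusted p = 4.13e-04, edgeR), and within replicate numbers it lay between -1.74 and -0.90.

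In neurites, Mt3 stood at 257, 264 and 185 CPM in Ctrl and at 165, 180 and 124 CPM with MG132. The groups did not overlap, though the lowest Ctrl library and the highest MG132 library were close. The log2 fold change of -0.59 ± 0.21 missed the threshold (adjusted p = 0.0537, edgeR) and passed with the replicate number as a block (-0.59, adjusted p = 0.00712), the 3 numbers giving -0.64 to -0.55. Mt3 was higher in neurites than in somas both in Ctrl (1.15 ± 0.22, adjusted p = 0.00183, edgeR) and with MG132 (1.92 ± 0.22, adjusted p = 3.57e-05, edgeR). These calls held without any single library.

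Because Mt1, Mt2 and Mt3 share each library, their ratios do not depend on the scaling. The ratio of Mt2 to Mt1 counts was 1.07, 1.40 and 0.905 in Ctrl somas and 1.91, 1.97 and 1.64 in MG132 somas. In neurites it was 1.10, 1.16 and 0.841 in Ctrl and 2.33, 1.85 and 1.79 with MG132. In both fractions every MG132 library had a higher Mt2 share than every Ctrl library (2-sided exact permutation test, p = 0.1 in each, the smallest that 3 against 3 libraries allow, and adjusted p = 0.171 over 12 such tests).

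The ratio of Mt3 to Mt1 counts separated the groups in opposite directions in the 2 fractions. It went from 0.859, 0.685 and 0.490 in Ctrl somas to 0.457, 0.350 and 0.441 in MG132 somas. In neurites it went from 0.882, 0.825 and 0.731 in Ctrl to 1.67, 1.01 and 1.12 with MG132. Both separations were complete, and both had an exact permutation p of 0.1 (adjusted p = 0.171). MG132 neurites also lay above MG132 somas in every library, with means of 1.26 ± 0.352 and 0.416 ± 0.0573 (SD, n = 3, exact permutation p = 0.1), while the Ctrl fractions overlapped (p = 0.3).

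**Figure D3:**
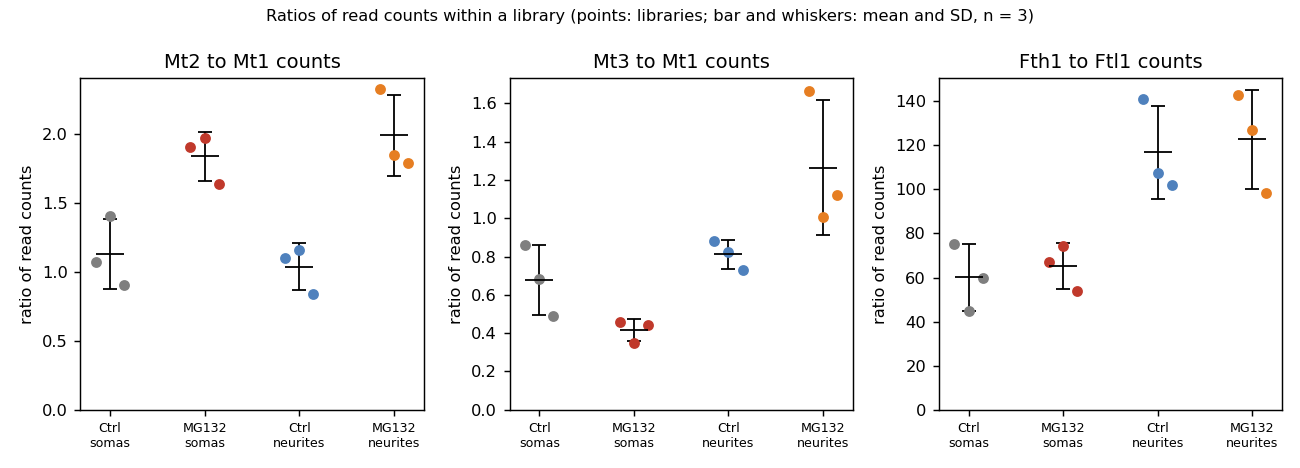
Ratios of read counts within each library (vertical axes from 0) for Mt2 to Mt1, Mt3 to Mt1 and Fth1 to Ftl1, by group, with the mean and SD of 3 libraries. The Mt2 to Mt1 ratio is 1.64 or more in every MG132 library and 1.40 or less in every Ctrl library.

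Mtf1, which encodes the transcription factor that reads cytosolic zinc, rose with MG132. It was at 30.2, 29.4 and 20.4 CPM in Ctrl somas and at 57.0, 71.7 and 58.8 CPM in MG132 somas. Every MG132 library lay above every Ctrl library, with a log2 fold change of 1.23 ± 0.20 (adjusted p = 3.96e-04, edgeR) that held without any single library. In neurites, the levels were 35.9, 42.6 and 44.5 CPM in Ctrl and 66.3, 57.9 and 56.4 CPM with MG132. These groups did not overlap either, and the log2 fold change of 0.55 ± 0.20 passed narrowly (adjusted p = 0.0493, edgeR). It did not pass without replicate 1 or 2 of either neurites group (0.47 to 0.58, adjusted p = 0.0851 to 0.142).

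Mtf1 was also higher in Ctrl neurites than in Ctrl somas, by 0.62 ± 0.20 on the log2 scale (adjusted p = 0.0449, edgeR). This call was lost in 10 of the 12 fits that each left out 1 library, all but those without MG132 somas replicate 2 or Ctrl neurites replicate 1 (0.39 to 0.66, adjusted p = 0.0519 to 0.270). With MG132 the fractions overlapped, with a difference of -0.05 ± 0.19 (adjusted p = 0.885, edgeR). The MG132 levels in somas and in neurites thus lay in the same range, from 56.4 to 71.7 CPM.

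Slc30a1, the ZnT1 transporter that moves zinc out through the plasma membrane, rose with MG132 in somas. The libraries read 36.5, 32.6 and 29.6 CPM in Ctrl somas and 67.4, 63.6 and 48.7 CPM in MG132 somas. No library overlapped between the groups, and the log2 fold change was 0.86 ± 0.19 (adjusted p = 0.00352, edgeR), with or without any single library. In neurites the levels were 24.1, 26.5 and 28.1 CPM in Ctrl and 36.0, 35.9 and 31.2 CPM with MG132. These groups did not overlap, but the log2 fold change of 0.39 ± 0.19 did not pass (adjusted p = 0.144, edgeR).

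Slc30a1 was the member that did not go with the others between fractions. Ctrl neurites differed from Ctrl somas by -0.33 ± 0.19 on the log2 scale, which did not pass (adjusted p = 0.290, edgeR) but did on total counts (-0.995, adjusted p = 0.0373). With MG132 the gene was lower in neurites by -0.80 ± 0.19 (adjusted p = 0.00837, edgeR). Without MG132 somas replicate 1 or MG132 neurites replicate 3 that call was lost (-0.69 to -0.64, adjusted p = 0.0623 to 0.0747).

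Fth1, the ferritin chain that oxidizes iron for storage, showed the largest difference of the members between the Ctrl fractions, and with MG132 it came after Mt3. Its levels were 1009, 949 and 1386 CPM in Ctrl somas and 5850, 6430 and 11073 CPM in Ctrl neurites. The lowest neurites library was more than 4 times the highest somas library, and the log2 difference was 2.80 ± 0.31 (adjusted p = 1.83e-05, edgeR). With MG132, the somas libraries read 1705, 2194 and 2621 CPM and the neurites libraries 5565, 8339 and 9313 CPM. The fractions again did not overlap, with a difference of 1.83 ± 0.30 (adjusted p = 5.63e-04, edgeR).

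MG132 raised Fth1 in somas by 0.96 ± 0.29 on the log2 scale (adjusted p = 0.0224, edgeR), and by 0.757 to 1.21 within the replicate numbers. The call was lost without Ctrl somas replicate 1 or 2 or MG132 somas replicate 2 or 3 (0.81 to 0.96, adjusted p = 0.050 to 0.0818). In neurites the Ctrl and MG132 libraries overlapped, with a log2 fold change of -0.01 ± 0.29 (adjusted p = 0.986, edgeR). Replicate 3 was the highest library in all 4 groups, by the widest margin in Ctrl neurites.

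Ftl1 encodes the light chain, which aids the formation of the iron core, and its counts are uncertain because of the shared sequence given above. It was read at 13.4, 21.2 and 23.1 CPM in Ctrl somas and at 25.4, 29.5 and 48.7 CPM in MG132 somas. The groups did not overlap, but the log2 fold change of 0.86 ± 0.38 did not pass (adjusted p = 0.108, edgeR). It passed with the replicate number as a block (0.83, adjusted p = 0.00112).

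In neurites, Ftl1 was at 41.5, 59.8 and 109 CPM in Ctrl and at 39.0, 65.6 and 94.9 CPM with MG132. Replicate 3 was highest and replicate 1 lowest in both groups, which overlapped over almost their whole range (-0.08 ± 0.37, adjusted p = 0.899, edgeR). Ctrl neurites exceeded Ctrl somas by 1.87 ± 0.39 (adjusted p = 0.00402, edgeR). With MG132 the difference was 0.94 ± 0.38 and did not pass (adjusted p = 0.1004, edgeR), but it passed with the replicate number as a block (0.91, adjusted p = 5.19e-04). It also passed without MG132 somas replicate 3, Ctrl neurites replicate 3 or MG132 neurites replicate 1 (0.99 to 1.33, adjusted p = 0.0427 to 0.0459).

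The ratio of Fth1 to Ftl1 counts rests on the uncertain Ftl1 counts. It was 75.4, 44.9 and 59.9 in Ctrl somas and 141, 108 and 102 in Ctrl neurites. It was 67.1, 74.3 and 53.9 in MG132 somas and 143, 127 and 98.1 in MG132 neurites. Neurites lay above somas in both conditions (exact permutation p = 0.1 in each), and Ctrl and MG132 overlapped in both fractions (p = 0.7 in somas and 0.9 in neurites). Over the 12 libraries the log2 CPM of Fth1 and Ftl1 correlated with r = 0.93, as a description over libraries that share groups and dates.

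Whether the response to MG132 differed between fractions was read from the interaction, the response in neurites minus that in somas. No member passed, and of all tested genes 0% were called, higher or lower (edgeR), while 1000 genes (7.05%) had an unadjusted p under 0.05. DESeq2 called 38 genes higher and 20 lower, no member among them. Mt3, with 0.77 ± 0.30 (unadjusted p = 0.0233, adjusted p = 0.619), Mtf1, with -0.68 ± 0.28 (0.0268 and 0.625), and Fth1, with -0.97 ± 0.41 (0.0303 and 0.659), were the members below that unadjusted level. With the replicate number as a block, Fth1 passed (-0.94, adjusted p = 0.0476), among 47 genes called higher and 43 called lower.

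Markers of other cell types moved with these comparisons, and their part in the members' differences was not tested. With MG132, 10 of 12 astrocyte markers fell in somas and 6 of 12 in neurites, and none rose. Blocked on replicate number, 12 astrocyte markers fell in somas and 9 in neurites, beside 2472 and 2564 of all tested genes. Their summed level ranged from 5115 to 6460 CPM in Ctrl somas, from 2619 to 3491 CPM in MG132 somas, from 21237 to 26462 CPM in Ctrl neurites and from 9859 to 20102 CPM in MG132 neurites. Gfap, the astrocyte intermediate filament, averaged 17774 CPM in Ctrl neurites and 1965 CPM in Ctrl somas. It was 3.18 higher in neurites on the log2 scale (adjusted p = 2.28e-05, edgeR), beside 4 of 12 astrocyte markers higher and 1 lower. Gfap thus made up most of the summed level in Ctrl neurites. The median log2 difference of the 12 markers between neurites and somas was -0.06 in Ctrl and 0.73 with MG132. Gjb6 was at 0 in all MG132 somas libraries, and every other astrocyte marker was read in each group.

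The other glial and vascular lists also went down with MG132. Of 10 oligodendrocyte lineage markers, 5 fell in somas and 5 in neurites, and of 10 microglia markers 3 and 8. The blocked fit called 9 and 10 of the oligodendrocyte lineage markers lower, and all 10 microglia markers in each fraction. The oligodendrocyte sum ranged from 1635 to 6756 CPM in Ctrl somas, from 558 to 6163 CPM in MG132 somas, from 5225 to 22355 CPM in Ctrl neurites and from 2948 to 16130 CPM in MG132 neurites. The microglia sum ranged from 898 to 1253 CPM in Ctrl somas, from 342 to 635 CPM in MG132 somas, from 834 to 1687 CPM in Ctrl neurites and from 219 to 481 CPM in MG132 neurites. Of the 7 vascular and fibroblast markers that could be tested, 6 fell in somas and 4 in neurites, from sums of 208 to 282 CPM in Ctrl somas to 74.7 to 98.6 CPM in MG132 somas, and from 59.3 to 118 CPM in Ctrl neurites to 35.5 to 54.0 CPM in MG132 neurites. Cldn5 was at 0 in every library of all groups but Ctrl somas, and Cdh5 in Ctrl neurites.

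Of 12 neuron markers, none passed in somas, and 1 rose and 1 fell in neurites. In the blocked fit 2 fell in somas (Syt1 and Stmn2) and 3 in neurites. Their sum ranged from 1720 to 2666 CPM in Ctrl somas, from 1270 to 2386 CPM in MG132 somas, from 1950 to 4183 CPM in Ctrl neurites and from 1458 to 3238 CPM in MG132 neurites. In bulk RNA, fewer cells of a type and less RNA per cell cannot be told apart.

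**Figure D4:**
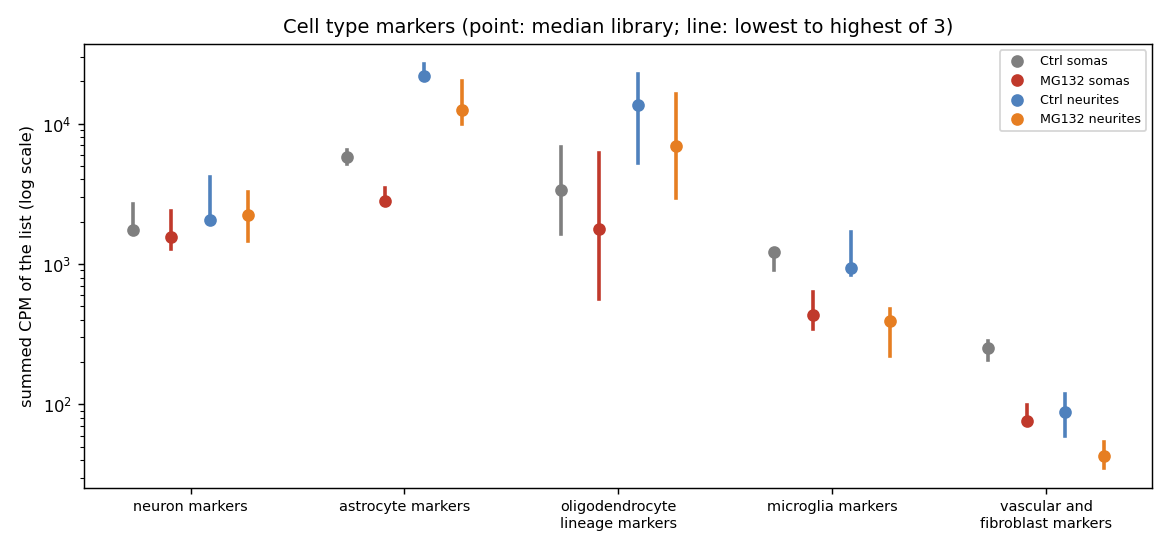
Summed CPM (vertical log axis) of each cell type marker list by group, with the median library as a point and a line from the lowest to the highest of 3. The astrocyte sums of MG132 somas, 2619 to 3491 CPM, lie below those of Ctrl somas, 5115 to 6460 CPM, and all astrocyte sums of neurites lie above both. In Ctrl neurites most of the astrocyte sum is Gfap, with a mean of 17774 CPM.

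The members were set beside 58 other genes of metal handling, of which 51 could be tested. In somas 11 rose and 5 fell with MG132, in neurites 9 rose and 5 fell, and their medians were -0.10 and 0.17, against -0.07 and -0.16 over all tested genes. Of all tested genes, 27.5% passed in somas (15.5% higher, 11.9% lower) and 27% in neurites (14.7% higher, 12.3% lower), which the list's calls lay near. These shares also stand beside the counts of each list below. Between fractions the shares were 10.2% higher and 4.65% lower in Ctrl neurites, and 11.4% and 6.35% in MG132 neurites. Without Ctrl somas replicate 1 or MG132 somas replicate 3, 6 rose in somas. The number that fell in somas was 3 without Ctrl somas replicate 1 or 2, and it was 2 without MG132 somas replicate 1. Without Ctrl neurites replicate 1, 5 rose in neurites, and without Ctrl neurites replicate 3, 3 fell. With the replicate number as a block, 9 fell in somas and 10 in neurites. That fit called 2472 and 2564 of all tested genes lower, in place of 1694 and 1738. Mt4, the metallothionein of squamous epithelia, had no read in any library.

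Among the 7 tested zinc exporters and vesicle loaders, 2 rose in somas, and 1 rose and 1 fell in neurites. Slc30a4, which loads zinc into vesicles, went up in somas from a mean of 47.2 to 128 CPM (log2 fold change 1.43 ± 0.21, adjusted p = 2.09e-04, edgeR) and from 38.5 to 124 CPM in neurites (1.69 ± 0.21, adjusted p = 5.00e-05). Slc30a9, a mitochondrial zinc transporter, fell in neurites from 210 to 117 CPM (-0.85 ± 0.16, adjusted p = 0.00115). It was higher in Ctrl neurites than in Ctrl somas by 1.39 ± 0.16.

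Of the 13 tested zinc importers, 2 rose and 3 fell in somas, and 2 rose and 1 fell in neurites. Slc39a1, a zinc importer of the plasma membrane, fell in both, from 53.3 to 16.7 CPM in somas (-1.66 ± 0.30, adjusted p = 0.00108, edgeR) and from 69.7 to 25.9 CPM in neurites (-1.41 ± 0.30, adjusted p = 0.00303). Slc39a12 (-1.96 ± 0.64) and Slc39a11 (-1.19 ± 0.28) fell in somas. Between Ctrl fractions 4 importers were lower in neurites and none was higher, Slc39a9 among them (-0.97 ± 0.23). In the blocked fit 3 importers fell in neurites with MG132, and in MG132 neurites 1 was higher and 3 were lower than in MG132 somas.

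Of the 10 tested copper handling genes, 4 were higher in neurites than in somas in Ctrl and 4 with MG132, and none was lower. Atox1, a copper chaperone, was 1.49 ± 0.26 higher on the log2 scale in Ctrl neurites, at 26.7 against 9.57 CPM (adjusted p = 0.00119, edgeR). Sod1, the copper- and zinc-binding superoxide dismutase, was 1.67 ± 0.19 higher and Cox17, which brings copper to cytochrome oxidase, 1.32 ± 0.28 higher in MG132 neurites than in MG132 somas. With MG132, 3 rose in somas, among them the copper pump Atp7a (1.04 ± 0.24), and in neurites 2 rose, among them Sod1 (1.05 ± 0.18), and 2 fell, among them Atp7b, which was near 0 with 2.40 CPM in Ctrl and 0.258 CPM with MG132. The blocked fit called 2 copper genes lower with MG132 in somas, 4 higher in neurites, and 1 lower in MG132 neurites than in MG132 somas.

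Of the 21 tested genes of iron uptake, export and sensing, 4 rose and 2 fell in somas, and 4 rose and 1 fell in neurites. Hmox1, the inducible heme oxygenase that frees iron from heme, rose from 59.5 to 1234 CPM in somas (4.38 ± 0.45, adjusted p = 1.49e-05, edgeR) and from 96.1 to 1030 CPM in neurites (3.42 ± 0.43, adjusted p = 5.10e-05). Tfrc, the transferrin receptor, fell in somas from 127 to 62.3 CPM (-1.02 ± 0.28, adjusted p = 0.0152). Slc25a37, a mitochondrial iron importer, rose in somas (1.20 ± 0.26) and was lower in neurites than in somas, by -1.05 ± 0.27 in Ctrl and -1.57 ± 0.26 with MG132. In neurites the ferroxidase Heph rose (1.40 ± 0.41) and the constitutive heme oxygenase Hmox2 fell (-1.07 ± 0.26). In the blocked fit 7 iron genes rose and 4 fell in somas, and 3 fell in neurites.

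**Figure D5:**
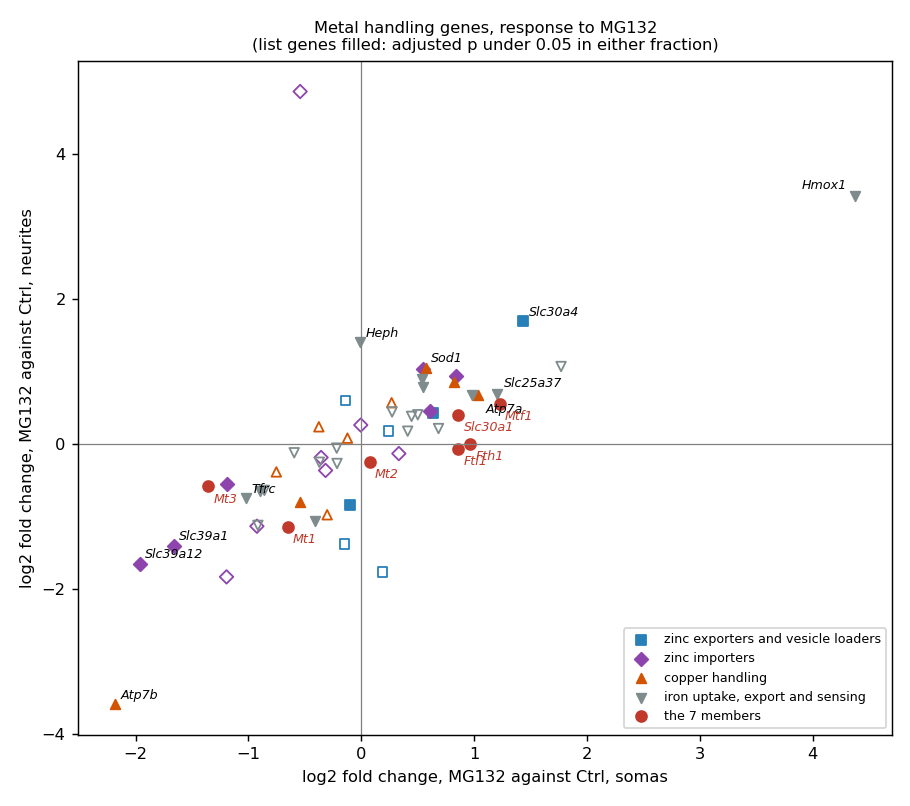
Log2 fold change with MG132 in somas (horizontal axis) and in neurites (vertical axis) of the 51 tested metal handling genes, by list, and of the 7 members in red. List genes are filled where the adjusted p was under 0.05 in either fraction. Hmox1 stands at 4.38 and 3.42, and no member exceeds 1.23 in either.

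The genes whose log2 CPM followed each member most closely over the 12 libraries were found among 13619 genes, as a description over libraries that share groups, depth and dates. For Mt1 they were Dusp3, Miga1 and Tns3 (r = 0.97, 0.97 and 0.96), for Mt2 Pgm5, Ctnnbip1 and Cyb5b (0.91, 0.90 and 0.88), and for Mt3 Decr1, Cntn1 and Atp5mpl (0.99, 0.98 and 0.98). For Mtf1 they were Zyx, Brd2 and Azin1 (0.94, 0.94 and 0.93), and for Slc30a1 Kmt2b, Tmem259 and Rdh13 (0.97, 0.96 and 0.95). Fth1 was followed by Spire1 and Rps3a1 (0.995 and 0.992), and Ftl1 by Msn, Gm9385 and Arf6 (0.94 each). Among the members, Mt1 and Mt3 rose and fell together (r = 0.77), as did Mt1 and Mt2 (0.64), whereas Slc30a1 ran opposite to Mt3 (-0.87) and Mt1 (-0.77). Mtf1 and Mt1 had r = -0.46, and Mtf1 and Slc30a1 r = 0.55.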

How the data were processed

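Each library was deposited as raw counts of reads on genes, in whole numbers. Per the labels and the study's methods, the authors trimmed reads with Trimmomatic 0.38.0, aligned single-end reads to mm10 with STAR and counted them with featureCounts 2.0.1 at default parameters, so reads that align to several places are likely left out of a gene's count. The strand setting is not given in the sources used here.

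The 27179 Entrez identifiers were matched to RefSeq symbols (25275 found). Lists and members were chosen with earlier results of these data known. Counts were fitted in R 4.3.3 with edgeR 4.0.16 (filterByExpr by group, 14185 genes kept, TMM factors, quasi-likelihood test, 4 group means over 12 libraries), and p-values were adjusted by the Benjamini-Hochberg method over all tested genes. A gene passed at an adjusted p under 0.05. Standard errors were taken as the size of the log2 fold change over the root of edgeR's F. CPM used TMM-scaled totals, RPKM the summed exon length of GENCODE M21, and correlations log2 CPM with a prior count of 2. None of the 66 pairs of libraries had identical counts.

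The genes named are the members, from the metal handling lists up to 4 rising and 4 falling genes per MG132 comparison and up to 2 each way per comparison of fractions, by size of change among those that passed and averaged 1 CPM or more, the 3 genes most correlated with each member (1 of them is not reported here), and heat shock genes as a check. Markers named singly were chosen after their values were seen. On simulated counts for MG132 against Ctrl in somas, the fit recovered 6.5% of 200 genes changed by 1 on the log2 scale (13894 genes fitted) and 90% of those changed by 2 (13877 genes fitted). Only 200 genes were changed there, against 3897 genes called in the data, so the adjustment for many genes was stricter than in the data. The median standard error over all genes was 0.36 in both fractions.

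The alternatives were DESeq2 size factors, total counts, totals without the most read gene and mitochondrial genes, DESeq2 1.42.0, no filter, a minimum of 10 counts per library, fits of only the compared groups, a block for replicate number, single libraries left out, and stricter thresholds. The replicate numbers pair the libraries by the dates in their names, except for 1 MG132 neurites library. After the group means were removed, libraries of the same number had correlations of 0.0972 to 0.248 across genes, and others of -0.181 to -0.0064.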

Additional observations from a re-analysis of the deposited data

How the results depend on the processing

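Of 693 alternative values for the members' log2 fold changes, 606 kept their direction and side of the threshold, 47 lost the call, 14 gained it and 26 reversed, all of these last for differences that did not pass, apart from Mtf1 between the Ctrl fractions. With 3 libraries per group, whether a difference below 1 on the log2 scale passed varied with the spread of the gene. Mtf1 in neurites passed at 0.55 ± 0.20 (SE), while Ftl1 in somas did not pass at 0.86 ± 0.38.

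With total counts in place of TMM factors, 1 member rose and 1 fell in somas, 0 rose in neurites, and 2 were higher and 1 lower in Ctrl neurites than in Ctrl somas. Of the metal handling genes, 5 rose and 3 fell in somas, and 3 rose in neurites. Neurites against somas reversed to -0.32 for Mt1 and -0.24 for Mt2 with MG132, and to -0.048 for Mtf1 in Ctrl. Over all tested genes the calls in somas went from 2203 higher and 1694 lower to 1072 and 1037. The shifts of all genes in neurites and between fractions are given above.

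At an adjusted p under 0.01, 1 member fell in somas, 0 rose in neurites and 3 were higher in Ctrl neurites, and 4 metal handling genes rose and 2 fell in somas, and 5 rose and 3 fell in neurites. With a log2 fold change above 1.7 as well, 0 members rose or fell in either fraction. Of the members, 2 were higher in Ctrl neurites (Fth1 and Ftl1) and 0 were lower in MG132 neurites. Of the metal handling genes, 1 rose and 0 fell in each fraction. The shares of all tested genes at these stricter thresholds are not given here. DESeq2 size factors, DESeq2 itself and the filter of at least 10 counts each gave 0 members higher and 2 lower in neurites, since Mtf1 lost its call and Mt3 gained one, and under that filter Mt2 in somas reversed to -0.019.

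Under a block for the replicate number, 4 members rose in somas, 2 fell in neurites, 4 were higher in MG132 neurites than in MG132 somas and 1 had a lower response in neurites, since Ftl1 in somas, Mt3 in neurites, Mt2 and Ftl1 between the MG132 fractions and Fth1 in the interaction gained a call, while 9 metal handling genes fell in somas and 10 in neurites. The block changed no other call of a member. Over all tested genes it called 2697 higher and 2472 lower in somas, in place of 2203 and 1694. In neurites it called 2514 higher and 2564 lower, in place of 2085 and 1738. Between the MG132 fractions it called 2142 higher and 1660 lower in neurites, in place of 1615 and 901. Fth1 in neurites turned to 0.018 under that block, to 0.13 without a filter, to 0.028 with only the groups compared, and to 0.090 without the most read gene and mitochondrial genes in the totals. Ftl1 in neurites reversed to 0.059 without a filter and to 0.021 without those genes. Without a filter 14 metal handling genes rose in neurites, and with only the groups compared 3 fell.

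Leaving out single libraries gave 1 to 2 members lower in somas, 0 to 1 higher in neurites, 3 to 6 higher in Ctrl neurites and 0 to 1 lower in MG132 neurites. It gave 6 to 12 metal handling genes higher and 2 to 6 lower in somas, and 5 to 13 higher and 3 to 6 lower in neurites. The lowest and highest values were -0.035 and 0.17 for Mt2 in somas, -0.50 and 0.017 for Mt2 in neurites, -0.12 and 0.051 for Mtf1 between the MG132 fractions, -0.18 and 0.45 for Fth1 in neurites, and -0.34 and 0.50 for Ftl1 in neurites. The causes of these changes were not tested.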

Other observations

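Slc30a9, Atox1 and Sod1 were higher in neurites than in somas with MG132 too, by 0.64 ± 0.16, 1.22 ± 0.27 and 1.67 ± 0.19 on the log2 scale (adjusted p = 0.0110, 0.00549 and 2.75e-05, edgeR). Under MG132 their levels in neurites went different ways. Atox1 fell from 26.7 to 15.3 CPM (-0.80 ± 0.26, adjusted p = 0.0327), as Slc30a9 did, whereas Sod1 rose from 75.4 to 156 CPM. Sco1, a copper chaperone for cytochrome oxidase that was chosen after its values were seen, rose from 7.23 to 12.7 CPM in somas (0.82 ± 0.29, adjusted p = 0.0471) and in neurites from 7.72 to 14.0 CPM (0.85 ± 0.30, adjusted p = 0.0444).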
